A study of Mus musculus with 132 samples.

Results

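Inner cell mass-like (ICM-like) and trophectoderm-like (TE-like) cells of 32-cell control embryos were compared here: 25 and 14 cells, together 39 of the 132 single cells of the series. The members were chosen by a marker score. For each of the 78 cells of 32-cell embryos, expression was taken as log2(CPM + 1), where CPM is the count of a gene per 1000000 counts after mitochondrial genes were left out, and each marker was converted to a z-score over those 78 cells. The score is the mean z-score of 9 ICM markers (Gata6, Pdgfra, Nanog, Fgf4, Gdf3, Tdgf1, Fgfr1, Klf2 and Spic) less that of 9 TE markers (Gata3, Eomes, Id2, Elf3, Dab2, Fgfr2, Tspan8, Krt8 and Krt18). A cell above 0 is ICM-like and any other cell TE-like, and these 18 genes are left out of the counts and gene lists and given as a description of the rule.

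The study asked what a mimic of miR-381-3p does to mouse preimplantation embryos, and the control embryos are its reference. Embryos of superovulated C57BL/6 x DBA F1 females mated with males of the same cross were flushed at E1.5 as 2-cell embryos and cultured in KSOM, a medium for preimplantation embryos. Control embryos received a scrambled negative control mimic in the medium and mimic-treated embryos the miR-381-3p mimic, each at 5 or 10 µM, and cells were picked at the 8-cell stage (E2.5) or the 32-cell stage (E3.5). Each cell was sequenced by Smart-seq2, which reads whole polyadenylated transcripts and adds no molecular identifiers. The 8-cell groups were treated at 10 µM and the 32-cell groups at 5 µM, so stage and dose cannot be told apart between them. The labels name no embryo or sex for a cell, and 3 to 5 embryos were used per group and time point, so each class was treated as 1 sample without replicates. Every difference between the classes is therefore a description, without a test or a p-value.

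The trophectoderm is the outer epithelium of the blastocyst, which pumps fluid into the cavity and later forms the placenta. Its fate is set in outer cells, where polarity holds the Hippo pathway inactive and the coactivator YAP works with TEAD4 to turn on Cdx2 and Gata3. Inner cells keep the pluripotency genes and go on to form epiblast, which makes FGF4, and primitive endoderm, which responds to it.

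In ICM-like control cells the score ran from 0.0948 to 1.60, with a median of 0.744, and in TE-like cells from -1.99 to -0.631, with a median of -1.33. The ICM-like cells nearest to the threshold scored 0.0948, 0.169 and 0.305, and the nearest TE-like cells -0.631, -0.848 and -1.02. No control cell therefore lay between -0.631 and 0.0948. The ICM-like class took 64.1% of control cells (exact binomial 95% interval 47.2 to 78.8). Numbers in the cell titles fell into 2 runs, 24 cells and 15 cells, which may mark a batch that no label names. The ICM-like share was 17 of 24 cells in the first run (70.8%, interval 48.9 to 87.4) and 8 of 15 in the second (53.3%, interval 26.6 to 78.7). Intervals of shares and of pooled values cover counting error alone.

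**Figure D1:**
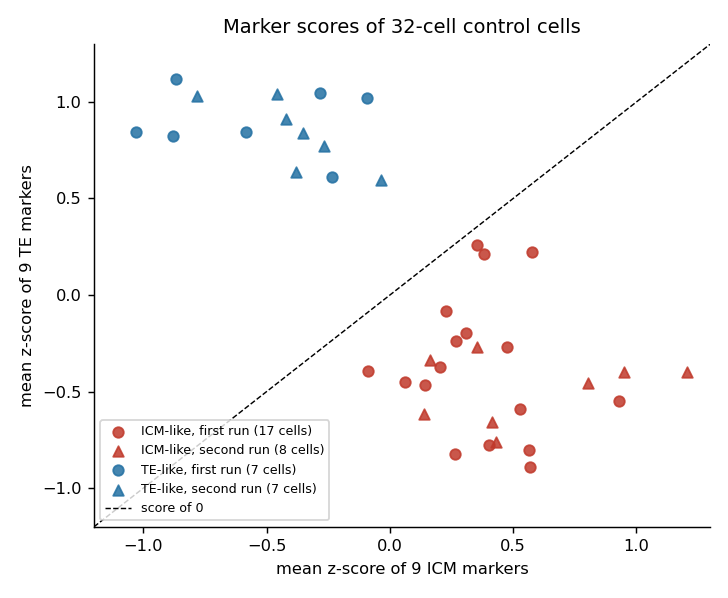
Marker scores of the 39 control cells. The x axis is the mean z-score of 9 ICM markers and the y axis that of 9 TE markers, each point is a cell, circles and triangles are the runs of title numbers, and the dashed line marks a score of 0. The 14 TE-like cells lie above the line, the nearest at -0.631, and 3 ICM-like cells lie at TE z-scores above 0.

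Total counts per cell ran from 600333 to 2860530 in ICM-like cells and from 578979 to 3461020 in TE-like cells, with 5988 to 7907 and 6626 to 8174 genes detected. Without mitochondrial genes the median total was 1108730 in ICM-like and 1705580 in the TE-like cells. The part of this depth difference in the results was not tested, though values with every cell thinned to the lowest total are given below. Mitochondrial genes held 2.40 to 5.46% and 2.32 to 7.16% of counts. The summed level of 15 cumulus cell markers had a median of 0 CPM in both classes and reached 15.4 and 30.3 CPM, and 0 of the 15 was at 20 CPM. Of 26 genes of earlier stages, 2 reached 20 CPM, and their summed level had a median of 302 CPM in ICM-like cells (range 108.8 to 615) and 193 CPM in TE-like cells (range 79.02 to 739). For ribosomal protein genes 82 of 83 were at 20 CPM or more and 0 of them lay 2-fold apart, with a median log2 ratio of -0.04.

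The marker genes show what the score separated, and their values chose the cells. Pooled over cells, Spic stood at 755 CPM in ICM-like and 63.4 CPM in TE-like cells, and Krt18, a keratin of simple epithelia, at 402 and 2414 CPM. Nanog, the epiblast regulator, was at 478 and 275 CPM and had a count in every cell of both classes. Gata6, its counterpart in primitive endoderm, was at 111.1 and 77.7 CPM. Counts of both Nanog and Gata6 were found in 22 of 25 ICM-like cells (88%, interval 68.8 to 97.5) and in 14 of 14 TE-like cells, and both genes are part of the score. Of later primitive endoderm regulators that are not part of the score, Sox17 was detected in 7 of 25 ICM-like cells and 1 of 14 TE-like cells, and Gata4 in 2 and 0. Sox7 was detected in 1 ICM-like cell and Foxa2 in 0, which allows pooled levels of up to 0.0921 CPM for Foxa2 in ICM-like cells. Cdx2, the TE regulator, was detected in 20 of 25 ICM-like cells (80%, interval 59.3 to 93.2), so the class is not free of TE transcripts. Sox2, an epiblast regulator, and Cdx2 were both detected in 18 of 25 ICM-like cells and 4 of 14 TE-like cells.

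Pooled CPM, the summed counts of a class per 1000000 of its summed total, was then compared over all genes. Of 7223 genes at 20 CPM or more in either class, 860 (11.9%) were at least 2-fold higher in ICM-like cells and 726 (10.1%) in the TE-like class, on the ratio of CPM + 1. The median absolute log2 ratio was 0.46, or 0.427 with every cell thinned to the lowest total, 560168 counts, and the median log2 ratio was 0.07. Genes 2-fold apart were also found between runs of 1 class, on fewer cells a pool. Between the first and the second run of title numbers the median absolute log2 ratio was 0.43 among ICM-like cells, with 18.8% of genes 2-fold apart, and 0.53 among TE-like cells, with 26.2%. Between the classes 21.96% of genes were 2-fold apart over both runs, and within a run, also on fewer cells, 29.7% in the first and 30.8% in the second. For a single gene, a 2-fold difference in pooled level is not by itself larger than the spread between runs. Of the 1586 genes 2-fold apart, 914 reached 20 CPM in 1 class alone, as did 1377 of all 7223 genes. For such genes the filter itself forces some difference, though not one of 2-fold.

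**Figure D2:**
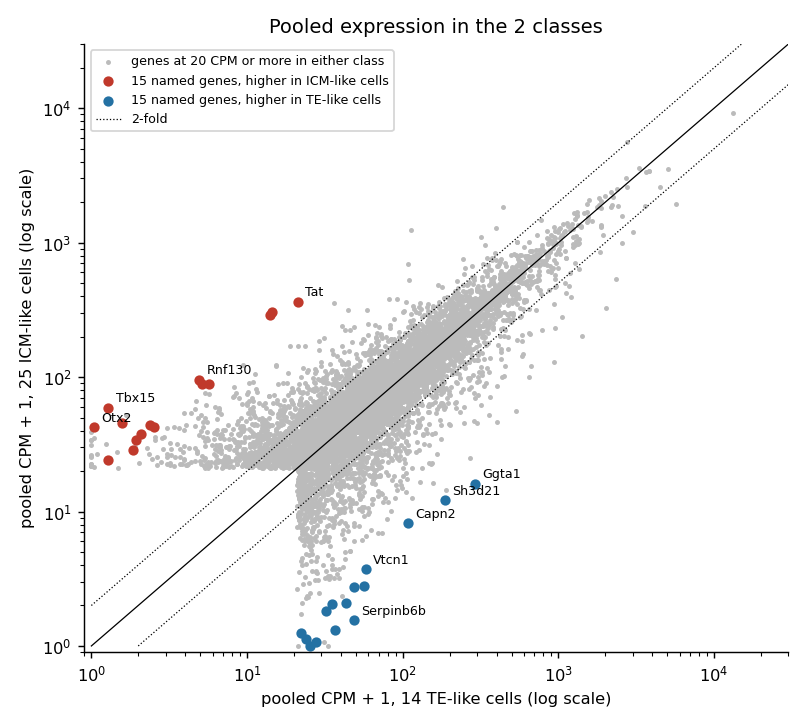
Pooled expression of 7223 genes in both classes. The x axis is pooled CPM + 1 in 14 TE-like cells and the y axis that in 25 ICM-like cells, both on log scales, with dotted lines at 2-fold and the 30 named genes in colour. In the lower class 24 of the 30 named genes lie below 5 CPM, while Pecam1, Fn1, Tat, Ggta1, Sh3d21 and Capn2 lie at 7.19 CPM or more.

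Few genes separated every cell. In 2 of 7223 genes (0.0277%) each ICM-like cell was above each TE-like cell, and in 9 (0.125%) the reverse held. These genes were singled out after their values were seen, and the counts rest on the class rule, as they were 0 and 0 with classes from ICM markers alone and 0 and 2 with classes from TE markers alone. Sat1, the enzyme that acetylates spermidine and spermine, ran from 777 to 3247 CPM over ICM-like cells (median 1692) and from 269.6 to 762 over TE-like cells (median 391). Zc3hav1, an antiviral RNA-binding protein, ran from 616 to 1959 CPM and from 83.4 to 574. The 9 genes of the other direction were Ptges, Dppa1, Fabp3, Cldn4, Akr1b8, Tpm1, Bmyc, Mt1 and Tmsb10. Ptges, a prostaglandin E synthase, showed the largest ratio among them and ran from 224 to 680.5 CPM over TE-like cells (median 406) and from 0 to 169.5 CPM over ICM-like cells (median 39.3). Fabp3, a fatty acid carrier, ran from 467 to 866 CPM (median 607) against 23.6 to 249 (median 90.7). Cldn4, a claudin of tight junctions, ran from 1369 to 3415 CPM (median 2307) against 173.8 to 1287 (median 508). Akr1b8, an aldo-keto reductase, ran from 539 to 1222 CPM against 101.5 to 411. In 8-cell control cells, before the lineages part, Ptges was at 0.408 CPM, Dppa1 at 0, Akr1b8 at 5.04 and Fabp3 at 15.7, each below both classes, while Sat1 was at 3695 CPM and Mt1, a metallothionein, at 529, each above both.

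The 15 genes named for the largest ratio towards ICM-like cells were Tbx15, Otx2, 4930566F21Rik, Pecam1, Fn1, Rnf130, Tyk2, Shld2, 2310057M21Rik, Rab27a, Plekhm3, Tat, Gemin4, Kyat3 and Enc1, with log2 ratios from 3.95 to 5.53. Of the 30 genes named in both directions, 29 were under 20 CPM in the lower class. The values chose these genes, and no test accompanies them. In 16 of the 30 the ratio differed at least 2-fold between the runs, most in Plekhm3, an adaptor of the endolysosomal system, with log2 ratios of 6.93 and 1.65, and that spread is outside the counting intervals given below. Tbx15, a T-box transcription factor (chromosome 3, 99240381 to 99354259 on GRCm38), ran from 0 to 331 CPM over ICM-like cells with a median of 13.0 and from 0 to 3.85 CPM over TE-like cells with a median of 0. It was detected in 16 of 25 and 2 of 14 cells, and its pooled level was 58.3 CPM (exact Poisson interval 55.7 to 61.0) against 0.288 (interval 0.116 to 0.593). The high cells came from both runs, with log2 ratios of 5.63 and 5.43.

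Otx2, a homeodomain factor of epiblast and anterior neural tissue (chromosome 14, 48657677 to 48673819), ran from 0 to 146.1 CPM over ICM-like cells with a median of 13.4. In TE-like cells 1 count was found in 1 of 14 cells, and the highest value was 0.771 CPM. Its pooled level was 41.2 against 0.0411 CPM, a ratio of 1002 with a counting interval of 179 to 39593. Otx2 was detected in 18 of 25 ICM-like cells, Otx2 and Sox2 in 17, Otx2 and Tbx15 in 13, and Otx2 and Sox17 in 4. In 8-cell control cells it stood at 0.0272 CPM.

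Genes with a count in every ICM-like cell were fewer. Pecam1, an adhesion molecule also found on the inner cells of the blastocyst, ran from 29.2 to 790.4 CPM over ICM-like cells (median 235) and from 0 to 82.2 over TE-like cells, where 9 of 14 had no count and the median was 0. It was 22.7-fold higher in the pooled counts (counting interval 20.4 to 25.5), with log2 ratios of 5.86 in the first run and 3.08 in the second, and 20 of 25 ICM-like cells lay above the highest TE-like cell. Fn1, fibronectin, ran from 5.00 to 742 CPM (median 230.4) against 0 to 86.8 (median 0), with 22 of 25 ICM-like cells above the highest TE-like cell. Tat, the tyrosine aminotransferase best known from liver, ran from 28.5 to 1052 CPM (median 334) against 0 to 206 (median 2.93). Rnf130, a ubiquitin ligase, ran from 8.79 to 291 CPM (median 77.4) against 0 to 37.9 (median 0). These genes overlapped in some cells, and their highest TE-like cells stood above their lowest ICM-like cells. Some entries share sequence with neighbours. 4930566F21Rik overlaps 439 bases of Gpn1 in antisense, and the reads carry no strand to part them. 2310057M21Rik lies within the Fgfr2 gene and Gemin4 within Glod4, each on the same strand as its neighbour. The counts of these entries are therefore uncertain.

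The 15 genes named towards TE-like cells were Serpinb6b, Fmnl3, Plcd3, Abhd14b, Fosl2, Slc22a23, Slc15a2, Ggta1, Clmn, Slc52a3, E2f8, Osbpl3, Vtcn1, Sh3d21 and Capn2, with log2 ratios from -4.97 to -3.73. In all 15 the median ICM-like cell was at 0 CPM, and in 2, Ggta1 and Sh3d21, every TE-like cell had a count. Ggta1, which makes the alpha-gal sugar epitope (chromosome 2, 35400179 to 35463231), ran from 26.7 to 569.6 CPM over TE-like cells (median 225) and from 0 to 104.6 over ICM-like cells. It was 19.2-fold higher in TE-like cells (counting interval 17.5 to 21.04), with log2 ratios of -4.78 and -3.47 in the runs, and 13 of 14 TE-like cells lay above the highest ICM-like cell. Serpinb6b, a serine protease inhibitor (chromosome 13, 32965209 to 32979067), was detected in 11 of 14 TE-like cells, with a median of 35.8 and a highest value of 223 CPM, and in 1 of 25 ICM-like cells at 30.9 CPM. It is 1 of a family of close copies among which reads may be split.

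Fmnl3, a formin that builds actin filaments (chromosome 15, 99317225 to 99370482), ran from 0 to 69.3 CPM over TE-like cells (median 37.9) and reached 13.7 CPM in ICM-like cells, where 23 of 25 had no count. E2f8, a repressor in the E2F family that takes part in endoreduplication of trophoblast giant cells, was detected in 10 of 14 TE-like cells (median 33.5 CPM) and 2 of 25 ICM-like cells, and its highest value was 166.02 CPM. Vtcn1, an immune checkpoint ligand, had a median of 45.0 CPM over TE-like cells and 0 over ICM-like cells. Abhd14b, a hydrolase, had no count in any ICM-like cell, which allows up to 0.0921 CPM for 3 counts in the class. Abhd14b had a count in 8 of 14 TE-like cells, with a median of 5.27 CPM. Its pooled level there was 24.5 CPM, 34.9 in the first run and 10.5 in the second. The pooled ratio was at least 266 on that allowance, a bound that covers counting error alone. Osbpl3, a lipid-binding protein, had a log2 ratio of -4.52 in the first run and -0.02 in the second, so its difference came from the first.

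**Figure D3:**
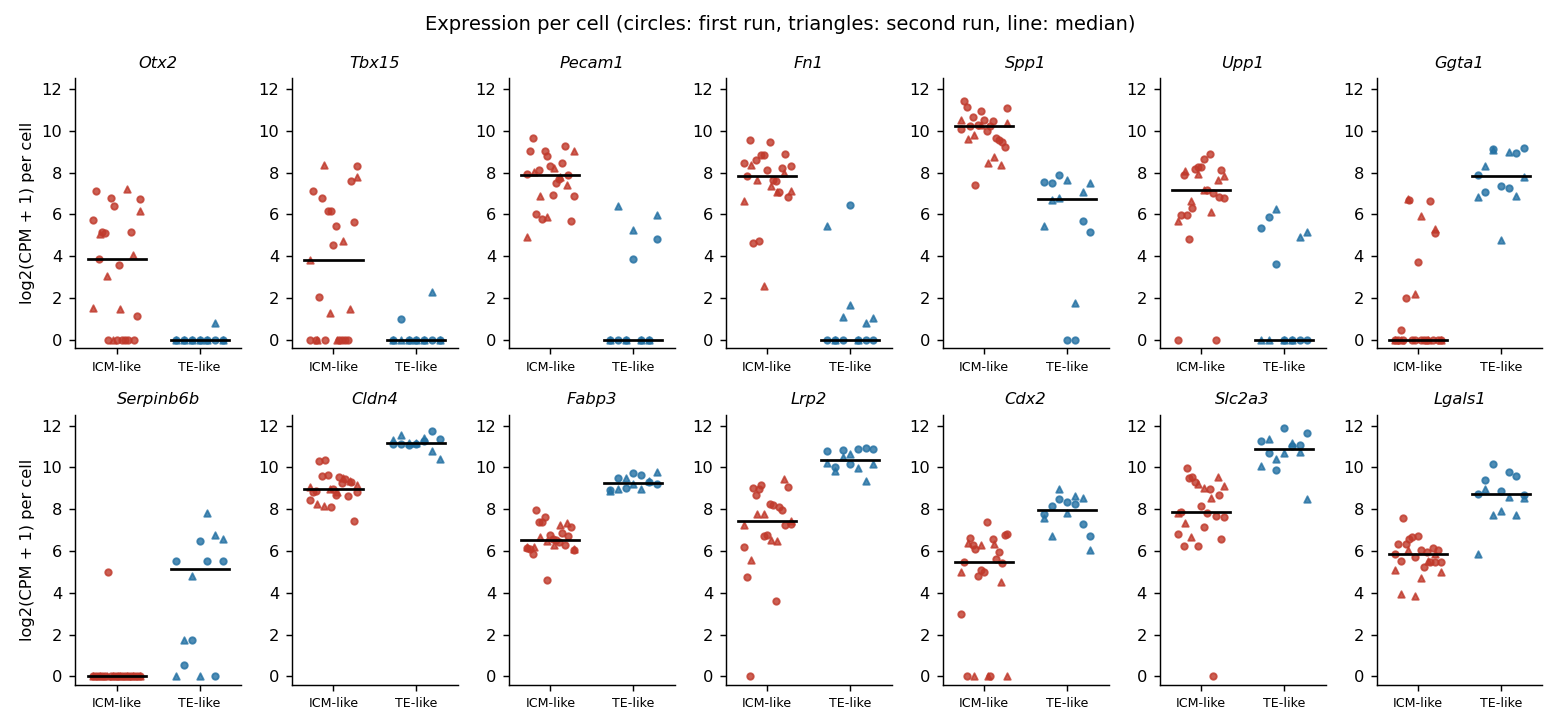
Expression per cell of 14 genes. The y axis is log2(CPM + 1), each point is a cell of the ICM-like class (25 cells) or the TE-like class (14 cells), circles and triangles are the runs, and the line is the median. Cldn4 and Fabp3 do not overlap between the classes, Otx2 and Tbx15 have many ICM-like cells at 0, and Cdx2 and Lrp2 have counts in both classes.

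Promoter sequences, 300 bases around each annotated start from RefSeq on GRCm38.p6, were found for 24 of the 30 named genes, 14 sequences of 10 genes towards ICM-like cells and 15 sequences of 14 genes towards TE-like cells, since some genes have several starts. Motifs were searched as letters on both strands. The TEAD motif GGAATG was found in 14.7% of all 32851 promoters, in 2 of 14 and in 1 of 15. The GATA motif AGATAA was found in 11.2% of all, in 4 of 14 (3 genes, with matches at 2 of the 4 Otx2 starts) and in 1 of 15. The TFAP2 motif GCCNNNGGC was found in 16.6% of all, in 2 of 14 and in 5 of 15 (4 genes, with matches at both Sh3d21 starts). The POU octamer ATGCAAAT was found in 1.74% of all and in 0 of either set. Promoters of 1 leading transcription factor towards ICM-like cells and 2 cytoskeletal genes towards TE-like cells are shown, with motif matches in capitals (GATA in Otx2, at 1 of its 2 starts with a match, TEAD and then TFAP2 in Fmnl3, TFAP2 at both places in Clmn, which encodes the actin-binding protein calmin). A match is a description of the letters and no evidence of binding.
Otx2, chr14:48665060-48665359, minus strand: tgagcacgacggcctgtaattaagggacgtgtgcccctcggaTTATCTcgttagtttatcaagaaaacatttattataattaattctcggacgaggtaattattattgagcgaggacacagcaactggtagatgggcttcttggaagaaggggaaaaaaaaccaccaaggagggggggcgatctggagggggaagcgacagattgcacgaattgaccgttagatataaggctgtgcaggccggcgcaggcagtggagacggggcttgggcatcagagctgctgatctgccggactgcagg
Fmnl3, chr15:99370433-99370732, minus strand: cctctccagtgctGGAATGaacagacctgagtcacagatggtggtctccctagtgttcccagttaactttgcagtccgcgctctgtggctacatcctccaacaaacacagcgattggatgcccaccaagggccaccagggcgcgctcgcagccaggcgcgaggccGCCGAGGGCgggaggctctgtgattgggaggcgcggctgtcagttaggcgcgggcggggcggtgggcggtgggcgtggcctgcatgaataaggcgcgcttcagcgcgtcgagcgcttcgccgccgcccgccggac
Clmn, chr12:104865027-104865326, minus strand: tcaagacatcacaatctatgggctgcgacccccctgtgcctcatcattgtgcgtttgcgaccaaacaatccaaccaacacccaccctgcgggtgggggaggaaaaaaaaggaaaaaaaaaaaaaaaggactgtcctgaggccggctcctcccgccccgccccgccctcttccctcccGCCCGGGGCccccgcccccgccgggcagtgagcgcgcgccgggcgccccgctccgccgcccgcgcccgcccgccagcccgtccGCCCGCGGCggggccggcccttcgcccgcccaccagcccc

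Gene lists were next described by counts of members at 20 CPM or more in either class, against the backgrounds of 11.9% towards ICM-like and 10.1% towards TE-like cells. These backgrounds are shares of genes at least 2-fold apart. Counts of members merely higher in 1 class have no such share beside them, as it was not taken over all genes. The median log2 ratio over all genes was 0.07. Of 10 TE regulators outside the score, 10 were higher in TE-like cells and 4 at least 2-fold, with a median log2 ratio of -0.80. Over the processing alternatives this median ran from -1.29 to -0.49, and such ranges are given in brackets after the medians that follow. Lrp2, the endocytic receptor megalin, ran from 642 to 1935 CPM over TE-like cells (median 1298) and from 0 to 689 over ICM-like cells (median 174.3). Cdx2 ran from 64.4 to 501 CPM (median 251) against 0 to 168.6 (median 44.01). The pooled ratios were 6.96 (counting interval 6.78 to 7.14) for Lrp2 and 6.14 (interval 5.80 to 6.49) for Cdx2. Tfap2a, a factor of trophoblast, stood at 24.5 CPM in TE-like cells and 4.45 CPM in ICM-like cells. Tead4 stood at 114.97 and 53.1 CPM, while 8-cell control cells had 644 CPM.

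Of 19 Hippo pathway genes 8 were at least 2-fold higher in TE-like and 2 in ICM-like cells, with a median log2 ratio of -0.45 (-0.84 to -0.15), which was -0.15 in the first run and -0.66 in the second. The leading genes were Vgll3, a cofactor of TEAD, at 78.5 CPM in TE-like and 7.74 in ICM-like cells, and Ccn1, a secreted target of YAP, at 59.9 and 8.91 CPM. Amotl2, an angiomotin that holds YAP in the cytoplasm, stood at 136 and 30.7 CPM, and the kinase Lats2 at 62.9 and 17.2 CPM. Each of these 4 was lower in ICM-like cells in both runs, and each had a median of 0 CPM over ICM-like cells. Yap1 itself stood at 110 CPM in TE-like and 97.5 CPM in ICM-like cells.

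In the tight junction list 12 of 13 members were higher in TE-like cells, 9 of them at least 2-fold, and 0 were 2-fold higher in ICM-like cells, with a median log2 ratio of -1.199 (-2.01 to -1.04), and -1.02 and -1.59 over these members within the runs. Beside Cldn4, Cldn6 was at 273 and 83.3 CPM, Tjp3, a scaffold of the junction, at 104.8 and 26.2 CPM, and Marveld2, of contacts between 3 cells, at 37.7 and 8.72 CPM. In the list of keratins and desmosomes 4 of 7 were 2-fold higher in TE-like cells and 0 in ICM-like cells, with a median of -1.01 (-1.98 to -0.93). Dsc2, a desmosomal cadherin, stood at 151.5 and 21.5 CPM, and desmoplakin (Dsp) at 219.5 and 105.8 CPM. Annexins, galectins and S100 proteins had 5 of 10 members 2-fold higher in TE-like cells and 0 in ICM-like cells, with a median of -1.22 (-1.71 to -0.70). Lgals1, galectin 1, ran from 57.4 to 1154 CPM (median 418) against 13.6 to 192 (median 56.2), and 13 of 14 TE-like cells lay above the highest ICM-like cell.

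Polarity and cortex genes were mixed. Of 29 members 7 were 2-fold higher in TE-like and 4 in ICM-like cells, with a median of -0.34 (-0.65 in the second run alone to -0.11 in the first alone). The linkers Slc9a3r1 (146.2 and 30.3 CPM in TE-like and ICM-like cells) and moesin, Msn (584 and 143.6 CPM), stood higher in TE-like cells, as did Crb3, an apical polarity protein, at 94.8 and 27.1 CPM. Ezrin (Ezr), a relative of moesin, stood the other way, at 55.5 CPM in TE-like and 186 CPM in ICM-like cells. Among pumps, channels and aquaporins 2 of 7 were 2-fold higher in TE-like cells and 1 in ICM-like cells. Aqp3, a water and glycerol channel, was at 346 and 115.9 CPM, and Atp1b1, the pump subunit known from cavity formation, at 270.1 and 183 CPM, a log2 ratio of -0.56.

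Of 19 pluripotency regulators 18 were higher in ICM-like cells but 5 at least 2-fold, with 1 in the other direction and a median log2 ratio of 0.48 (0.40 to 0.61). Esrrb, an orphan nuclear receptor, ran from 0 to 323 CPM (median 49.7) against 0 to 47.4 (median 0). Etv5, a factor downstream of FGF signals, ran from 1.71 to 439 CPM (median 138) against 0 to 122 (median 0). Sox2 ran from 0 to 93.2 CPM (median 22.1) against 0 to 32.2 (median 0), and was at 0 in 8-cell control cells. Pou5f1, which encodes OCT4, stood at 338 CPM in ICM-like and 242 CPM in TE-like cells, a log2 ratio of 0.48. Lin28a, an RNA-binding protein that blocks let-7 maturation, was the exception at 14.2 and 32.6 CPM.

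Primitive endoderm genes had 9 members at 20 CPM, of which 6 were higher in ICM-like cells, 4 of them 2-fold, and 3 higher in TE-like cells, none 2-fold, with a median log2 ratio of 0.37. Over the same 9 the median was 0.96 in the first run and 1.01 in the second, and over the alternatives it ran from 0.10 with classes from TE markers alone to 1.34 after thinning. The 4 at 2-fold encode basement membrane or matrix proteins: Sparc at 63.5 and 10.9 CPM, Lamb1 at 157.3 and 34.1, Col4a2 at 38.7 and 9.62, and Col4a1 at 125 and 43.6. The 3 higher in TE-like cells were Pcsk6, a proprotein convertase, at 75.2 and 125.1 CPM, Cited1, a transcriptional coactivator, at 25.6 and 29.996, and Lamc1, a laminin chain, at 69.846 and 69.853, a log2 ratio of -0.00014. Of 24 listed genes 15 did not reach 20 CPM in either class. Among matrix and integrin genes 4 of 11 were 2-fold higher in ICM-like cells and 2 in the TE-like class. Spp1, osteopontin, ran from 166.3 to 2726 CPM over ICM-like cells (median 1185) and from 0 to 232 over TE-like cells (median 104.98), and 24 of 25 ICM-like cells lay above the highest TE-like cell. Members of the laminin and nidogen families were found on both sides. Lamb2 stood at 1.47 CPM in ICM-like and 27.98 CPM in TE-like cells, where 6 of 14 had a count, opposite to Lamb1. Nid2 stood at 5.93 CPM in ICM-like and 72.7 CPM in TE-like cells, and Nid1 at 182.2 and 45.9 CPM.

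**Figure D4:**
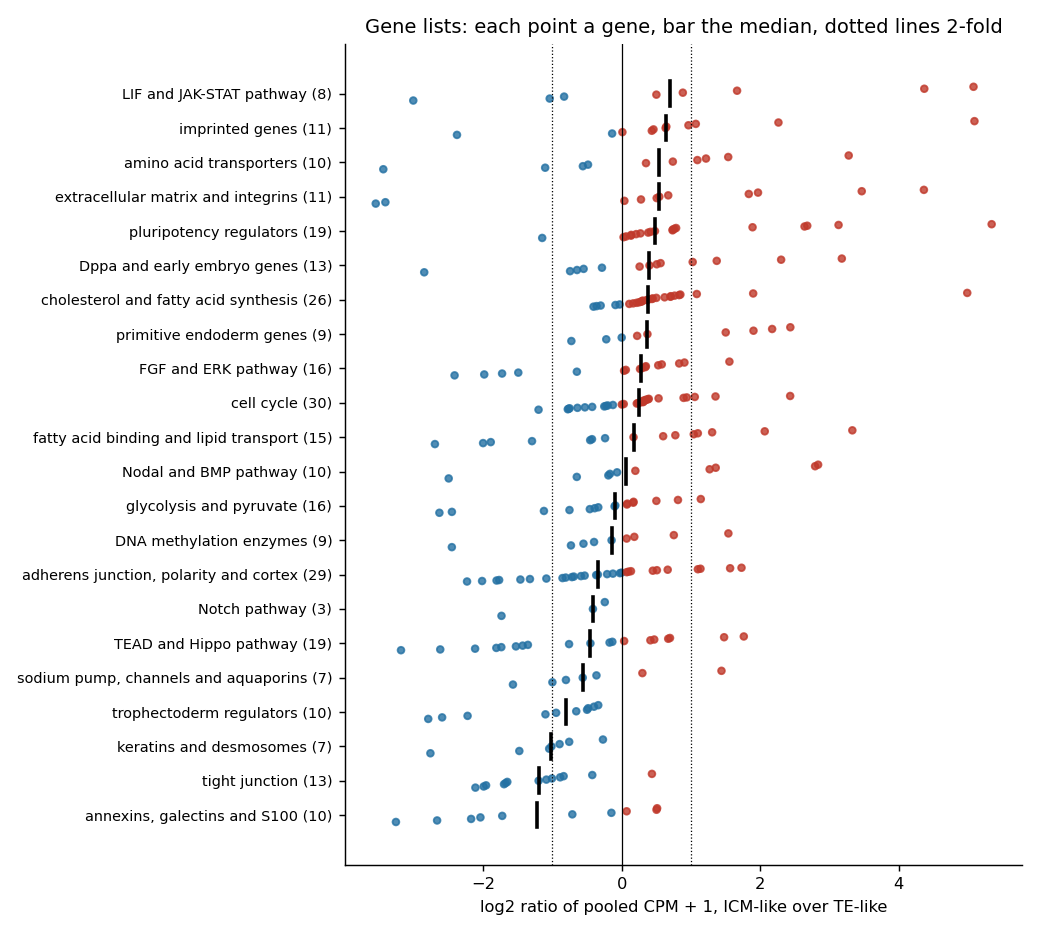
Gene lists in both classes. The x axis is the log2 ratio of pooled CPM + 1, ICM-like over TE-like, each point is a gene at 20 CPM or more in either class, the bar is the median of the list, the dotted lines mark 2-fold, and the number beside a list counts its points. Medians run from -1.22 for annexins, galectins and S100 proteins to 0.69 for the LIF and JAK-STAT pathway, whose 8 points have a median of -0.06 in the second run and whose median is -0.83 for genes at 20 CPM over all control cells.

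In the FGF and ERK list 4 of 16 were 2-fold higher in TE-like cells and 1 in ICM-like cells, with a median of 0.28 (0.027 for mean log2 values over cells to 0.36 after thinning). The ERK phosphatases Dusp6 (68.7 and 12.1 CPM in TE-like and ICM-like cells) and Dusp4 (51.3 and 12.2 CPM) and the exchange factor Sos1 (146.4 and 43.6 CPM) led towards TE-like cells. Ptpn11, the phosphatase SHP2, stood at 20.5 CPM in TE-like and 62.2 CPM in ICM-like cells. Nodal and BMP genes had 4 of 10 higher 2-fold in ICM-like cells and 1 in the TE-like class, with Id3, a BMP target, at 80.6 and 10.4 CPM in ICM-like and TE-like cells and the inhibitor Smad7 at 6.82 and 43.1 CPM. The Notch list held 3 members, of which Maml1 alone was 2-fold apart, at 5.81 and 21.7 CPM.

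In the LIF and JAK-STAT list 3 of 8 were 2-fold higher in ICM-like cells and 2 in the TE-like class, and over these 8 the median was 2.19 in the first run but -0.06 in the second. The receptor subunits were seen in few cells. Lifr had counts in 6 of 25 ICM-like cells, up to 215 CPM, and in 0 of 14 TE-like cells. Its pooled ratio was at least 266 towards ICM-like cells if 3 counts are allowed in the TE-like class. That bound covers counting error alone and leaves out the spread between cells. Il6st, which encodes gp130, had counts in 7 of 25 ICM-like cells and 1 count in 1 of 14 TE-like cells. Socs2, an inhibitor induced by the pathway, had a count in all 25 ICM-like cells (25.95 to 251 CPM, median 63.7) and in 10 of 14 TE-like cells (median 14.3). The kinase Jak2 stood the other way, at 47.3 CPM in TE-like and 5.01 CPM in ICM-like cells.

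Related lipid genes were found on both sides. Fabp5, a relative of Fabp3, ran from 44.6 to 395 CPM over ICM-like cells (median 124) and from 7.14 to 170.2 over TE-like cells (median 25.9). Of 15 genes of fatty acid binding and lipid transport 5 were 2-fold higher in ICM-like and 4 in the TE-like cells, and the acyl-CoA synthetases Acsl5 (23.5 and 1.44 CPM) and Acsl6 (10.4 and 44.7 CPM) lay on opposite sides. Of 26 genes of cholesterol and fatty acid synthesis 21 were higher in ICM-like cells, with a median of 0.37 (0.24 to 0.54). Of the 26, 3 were 2-fold higher in ICM-like cells, a share near the 11.9% over all genes, and 0 in TE-like cells. Fads1, a fatty acid desaturase, was at 51.6 and 0.657 CPM and had counts in 11 of 25 and 4 of 14 cells. In glycolysis 3 of 16 were 2-fold higher in TE-like cells and 1 in ICM-like cells. Slc2a3, a glucose transporter, ran from 360.2 to 3839 CPM over TE-like cells (median 1893) and from 0 to 1004 over ICM-like cells (median 229.9). Hexokinase 2 (Hk2), the enzyme that follows it, ran from 179.8 to 1251 CPM (median 575) against 2.01 to 328 (median 99.5).

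Among amino acid transporters 4 of 10 were 2-fold higher in ICM-like and 2 in the TE-like cells. Slc6a14, a broad sodium-coupled transporter, was at 271 CPM in TE-like and 24.0 CPM in ICM-like cells, and Slc7a2, an arginine transporter, at 5.22 and 59.2 CPM. DNA methylation enzymes had 1 of 9 higher 2-fold in each direction, Tet1 at 486 CPM in ICM-like and 166.6 CPM in TE-like cells and the cofactor Dnmt3l at 9.03 and 53.9 CPM. Of 30 cell cycle genes 3 were 2-fold higher in ICM-like cells and 1 in the TE-like class. Cdkn1b, the inhibitor p27, ran from 6.86 to 129 CPM over ICM-like cells (median 29.4) and from 0 to 24.3 over TE-like cells (median 5.51).

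Imprinted genes had 3 of 11 members 2-fold higher in ICM-like cells and 1 in the TE-like class. Meg3 and Rian, non-coding RNAs of 1 maternally expressed locus, both stood higher in ICM-like cells. Meg3 had counts in 20 of 25 and 3 of 14 cells, at 46.4 and 8.88 CPM. Rian had counts in 12 of 25 ICM-like cells and 1 count in 1 of 14 TE-like cells. Peg3, a paternally expressed gene, was at 7.22 CPM in ICM-like and 41.7 CPM in TE-like cells, with counts in 5 of 25 and 6 of 14 cells. In the list of Dppa and early embryo genes 4 of 13 were 2-fold higher in ICM-like cells and 1 in the TE-like class. Upp1, a uridine phosphorylase, ran from 0 to 470.1 CPM (median 140.04) against 0 to 74.8 (median 0), and Tdh, the threonine dehydrogenase of embryonic stem cells, was at 63.1 and 11.998 CPM. Of the 13, 5 were higher in TE-like cells, and the 1 at 2-fold was Dppa1, from 419 to 1876 CPM over TE-like cells (median 846) and from 0 to 287 over ICM-like cells (median 148.3).

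The same score divided 32-cell mimic cells into 17 ICM-like and 22 TE-like cells, whose pooled values are set beside the control values without a test. All 15 named genes towards TE-like cells had the same sign in mimic cells, 12 of them at least 2-fold, and of the 15 towards ICM-like cells 10 had the same sign and 7 were 2-fold. For the TE-like set the medians were -4.17 (control) and -1.63 (mimic) and for the ICM-like set 4.20 and 0.86. The genes had been chosen for large ratios in control cells, and no choice was made on mimic cells. A shared sign does not mean a kept level. For Serpinb6b the TE-like mimic cells held 28 counts, all in 1 of 22 cells. That is 0.910 pooled CPM, where TE-like control cells had 47.5. Abhd14b fell from 24.5 to 1.40 pooled CPM between these classes, with counts in 3 of 22 TE-like mimic cells. Slc52a3 alone of the 15 towards TE-like cells rose, from 47.3 to 55.3 CPM. Otx2 was at 0 of 22470635 pooled counts in ICM-like mimic cells, which allows up to 0.134 CPM, and at 0.715 CPM in TE-like mimic cells. Tbx15 was at 44.0 and 0.780 CPM and Pecam1 at 189.5 and 11.0 CPM in these classes. Sox2 was at 47.4 and 1.56 CPM, Lrp2 at 189 and 1161 CPM, and Fabp3 at 100.3 and 489 CPM. Zc3hav1 and Sat1, which did not overlap between the control classes, lay closer together in mimic cells. Zc3hav1 was at 527 and 416 CPM, a log2 ratio of 0.34 against 1.69 in control. Sat1 was at 2610 and 1561 CPM, a log2 ratio of 0.74 against 2.08. In 8-cell control cells 6 of the 15 genes towards ICM-like cells lay between the control classes, 5 below and 4 above both, and 9 of the 15 towards TE-like cells lay between, 5 below and 1, Plcd3 at 62.1 CPM, above both.

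**Figure D5:**
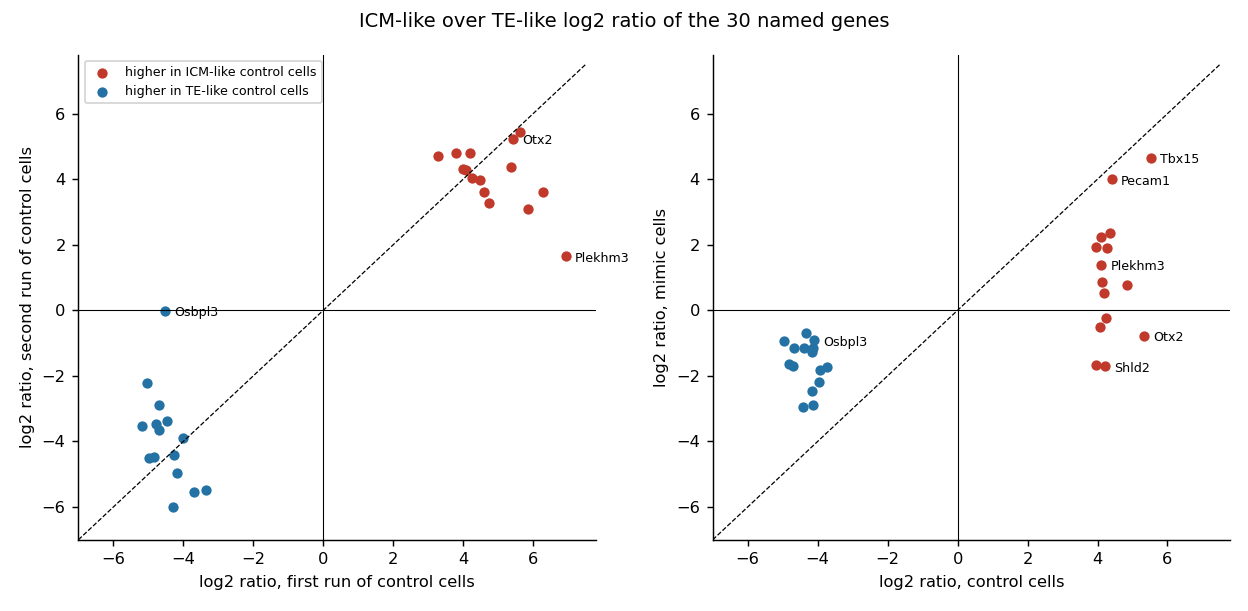
Log2 ratios of ICM-like over TE-like cells for the 30 named genes. The left panel sets the first run of control cells (x axis) against the second (y axis), the right panel all control cells (x axis) against mimic cells (y axis), each point is a gene and the dashed line marks equal ratios. Osbpl3 lies at -0.02 in the second run, and 5 genes towards ICM-like control cells, Otx2 among them, lie below 0 in mimic cells.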

How the data were processed

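The authors made the deposited estimated counts, a value for each gene and cell, with STAR (2.5.1b) and RSEM (1.3.0) on mm10. Every value was already a whole number, so none was rounded here. The table held 32245 genes and 132 cells. The study's filter (at least 3000 genes, at most 10% mitochondrial counts) removed 0 cells. The 13 mitochondrial genes were left out of totals. Smart-seq2 reads are not independent molecules, so intervals (exact Poisson for pooled counts, Clopper-Pearson for shares, 95%) cover counting error only. A count of 0 allows 3 counts. No test was run, since each class is 1 sample. Levels of different genes were not compared, as CPM is not corrected for length.

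Named genes were the 15 largest log2 ratios of pooled CPM + 1 in each direction, with at least 20 CPM and a count in at least 50% of cells in the higher class and the same sign in both runs of title numbers, together with up to 4 leading members and a reference member of each list. Members, the 24 lists and rules were chosen with earlier results of these data known. Coordinates are from GENCODE M21 (GRCm38), a release other than that used for counting. Pooled ratios were checked on simulated data. Alternatives covered pooling, pseudocount, filter, edgeR TMM scaling, thinning, runs of cells and class rules.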

Additional observations from a re-analysis of the deposited data

Results flagged for a closer look

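Some named genes and lists had class ratios (log2, ICM-like over TE-like) of opposite sign in 32-cell control and 32-cell mimic cells. Each class is 1 sample, and none of these differences was tested. Towards ICM-like cells in control, Otx2 had a ratio of -0.78 in mimic cells, Tyk2, a kinase of cytokine receptors, -0.23, Shld2, of the shieldin complex of DNA repair, -1.70, Gemin4, of the SMN complex, -0.51, and Enc1, an actin-binding protein, -1.66. For Otx2 the mimic classes held 0 and 0.715 pooled CPM. For Shld2 they held 1.74 and 7.90 CPM, and for Tyk2 23.1 and 27.2 CPM against 23.3 and 0.288 in control.

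Median log2 ratios over lists were of opposite sign for the Nodal and BMP pathway (0.06 in control, -0.43 in mimic), the LIF and JAK-STAT pathway (0.69 and -0.10), cell cycle genes (0.25 and -0.057), genes of earlier stages (0.15 and -0.46, 2 genes) and ribosomal proteins (-0.04 and 0.17). Groups of more than 10 cells were not searched for single outlying cells.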

How the results depend on the processing

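Named genes kept their sign under all 18 alternatives, 540 values in all, the sign in each run being part of how they were chosen. Of these, 170 moved by more than the counting interval. For 23 lists 21 of 387 median log2 ratios turned sign, and the cause was not tested. For runs alone the filter was applied anew, so these medians can be over other members than the run medians of the report. These were Notch, 0.079 in the second run alone; Nodal and BMP, -0.22 for mean log2 values over cells, -0.12 for genes at 20 CPM over all control cells, -0.0042 with TMM scaling, -0.0097 centred on the median ratio, -0.021 after thinning and -0.079 with classes from ICM markers alone; LIF and JAK-STAT, -0.83 at 50 CPM and for genes at 20 CPM over all control cells; lipid transport, -0.035 without a filter, -0.10 with TMM scaling and -0.0066 in the first run alone; glycolysis, 0.076 without a filter; amino acid transporters, -0.49 at 50 CPM, -0.068 for genes at 20 CPM over all control cells and -0.63 in the first run alone; DNA methylation enzymes, 0.18 without a filter, 0.072 at 50 CPM, 0.054 in the first run alone and 0.071 with classes from TE markers alone; and 2 genes of earlier stages, -0.64 without a filter. The filter over all control cells was chosen after seeing the data.

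The median absolute log2 ratio was 0.42 for mean CPM over cells, 0.60 for mean log2 values, 0.464 and 0.39 with pseudocounts of 0.1 and 10 CPM, 0.52 without a filter, 0.405 at 50 CPM, 0.419 for genes at 20 CPM over all control cells, 0.427 after thinning, 0.58 and 0.59 in the first and the second run alone, 0.448 and 0.443 with classes from ICM or TE markers alone, and 0.464 without the 2 cells within 0.25 of the threshold. Genes 2-fold higher in ICM-like cells numbered 2692 without a filter and 434 at 50 CPM, and in the TE-like class 1772, 406 and, for mean log2 values, 1152. Genes with every cell of the ICM-like class above every other cell numbered 11 and 24 in the runs alone and 0 with classes from ICM or from TE markers alone. In the other direction they numbered 26 and 44 in the runs, 0 and 2 with those classes and 14 without the cells near the threshold. Class sizes were 25 and 14 with z-scores over control cells, 24 and 15 with ICM markers alone and 22 and 17 with TE markers alone. No paired analysis was possible because the result comes from no test and title numbers pair no cells. At the pooled depth 3 counts were 0.0921 CPM in the ICM-like and 0.123 CPM in the TE-like class.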
